A study of Mus musculus with 4 samples.

Results

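The genes described here are 46 genes of DNA replication and S phase, measured among 19938 genes on 4 Affymetrix arrays of sorted crypt cells from the mouse small intestine. They were chosen by name, as factors of replication origins, polymerases, nucleotide supply and the G1/S switch, and the level of a gene is that of its probe set with 1 gene symbol and the highest mean over the 4 arrays. All 46 were found. Levels are log2 values, and a gene counts as expressed above a floor, percentile 95 of the chemosensory receptor genes on that array, which all 46 exceeded on all 4 arrays. The study deleted Slc39a7 (Zip7), which encodes a zinc transporter of the endoplasmic reticulum and Golgi, and its title concerns the proliferation of the intestinal epithelium and the upkeep of its stem cells. Adult mice of both genotypes carried villin-CreERT2, which recombines floxed alleles in the intestinal epithelium once tamoxifen is given, and Lgr5-EGFP-ires-CreERT2, a reporter for Lgr5 that carries the same inducible recombinase, and both received tamoxifen for 2 days. Control mice were Zip7flox/+, so that they too carried a floxed copy, and Zip7 KO mice were Zip7flox/flox. Crypt cells were sorted by reporter level into a fraction labelled Lgr5-Hi and one labelled Lgr5-Med (Lgr5-Mid in the sample titles). This gives 1 array for each genotype and label, called here the control Hi, KO Hi, control Med and KO Med arrays, and levels are listed in that order. How many mice stand behind an array, and whether both fractions of a genotype came from the same mice, is not stated in the labels.

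Before a cell copies its DNA, origins of replication are licensed by loading the MCM helicase, and the helicase is switched on at the start of S phase by the CDC45 and GINS proteins. Polymerases then copy both strands with the help of a sliding clamp, a clamp loader and enzymes that join the short Okazaki fragments, while other enzymes supply deoxynucleotides and chromatin factors rebuild nucleosomes and DNA methylation. Many of these genes are transcribed at the G1/S border under control of E2F transcription factors. In the crypt, replication takes place in stem cells at the base and in the transit-amplifying cells above them.

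Because E2F factors are the textbook regulators of this set, the members' promoters were searched for 4 words of 8 bases that E2F sites commonly take, TTTCCCGC, TTTCGCGC, TTTGCCGC and TTTGGCGC, on both strands, from 250 bases before to 50 bases after the start. Promoter sequences from RefSeq (GRCm38.p6) were used for 38 members; Mcm4, Gins1, Gins2, Gins4, Rfc2, Pole, Prim2 and Ccne2 had no entry. A word occurred in 15 of the 38 (39.5%), against 2.605% of 27025 genes with a promoter and 4.60% of the 9920 of them expressed on at least 1 array. A CCAAT box, sought as CCAAT on both strands, occurred in 23 of the 38 (60.5%) and in 41.1% and 42.1% of the same genes. A match is a run of letters, not a measured binding site. Sequences are given for the 6 members with the largest difference between genotypes among those with a word before the start. Each runs 5′ to 3′ on the strand of the gene, with the matches in capitals (for Uhrf1 by its downstream listed start). Only a short stretch is given where the region overlaps an annotated gene. For Hells, Cdc6, Uhrf1 and Pola1 the printed stretch overlaps the annotated span of that same gene, though it lies before the start used here.
Hells, chr19:38930918-38930945, plus strand: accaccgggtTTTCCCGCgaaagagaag
Cdc6, chr11:98908003-98908030, plus strand: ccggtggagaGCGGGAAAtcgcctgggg
Mcm6, chr1:128359706-128359855, minus strand: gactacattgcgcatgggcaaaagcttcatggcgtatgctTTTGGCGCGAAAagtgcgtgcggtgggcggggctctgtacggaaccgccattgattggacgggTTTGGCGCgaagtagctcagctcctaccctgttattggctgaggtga
Uhrf1, chr17:56304118-56304145, plus strand: ccgagtcgggTTTCGCGCgcccaggcgt
Gins3, chr8:95633478-95633558, plus strand: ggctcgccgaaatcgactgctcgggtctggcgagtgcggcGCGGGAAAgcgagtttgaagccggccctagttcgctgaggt
Pola1, chrX:93632276-93632303, minus strand: tcatcacaggGCGCCAAAtgcactcccg
The Mcm6 promoter held 3 matches, and the first capital run is an overlap of TTTGGCGC at position -110 with TTTCGCGC read on the other strand at position -106, counted from the start.

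Slc39a7 stood at 8.92, 9.02, 8.61 and 8.22, so that it was lower on the KO Med array and not on the KO Hi array, and the position of its probes relative to the floxed part was not known, so this level checks nothing about the deletion. Lgr5 ran against the fraction labels, at 7.79, 7.93, 10.97 and 11.24. Every direction between fractions is therefore that of the labels, and labelled Lgr5-Med arrays had the higher Lgr5. Xist, expressed from the inactive X chromosome of females, was at 11.64 and 11.84 on the control Hi and control Med arrays and below the floor on both KO arrays, so that sex and genotype cannot be told apart. The sorted cells had the expression of epithelium, with Epcam between 11.57 and 11.66 on the 4 arrays and 7 of 7 epithelial genes above the floor on each. Each group has 1 array, so that spread among replicates was not measured, no difference was tested, and precision is limited by how few arrays there are. In such bulk samples fewer cells in S phase and less of each RNA per cell cannot be told apart.

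The replication genes were low on the arrays labelled Lgr5-Hi and high on those labelled Lgr5-Med, and the gap was wider in Zip7 KO. The lowest of the 4 values fell on the KO Hi array for 33 of 46 members, against 23.7% of 11827 genes that were expressed in both genotype comparisons, and on the control Hi array for 11 (29.1% of all genes). Rrm2 was lowest on the control Med array (16.7% of all genes) and Tk1 on the KO Med array (30.4%). The highest fell on the KO Med array for 29 members (25.4% of all genes) and on the control Med array for 14 (27.2%). Rpa2 and Tk1 were highest on the control Hi array (19.9%) and Rrm2 on the KO Hi array (27.5%). Both extremes were Zip7 KO arrays, lowest on KO Hi and highest on KO Med, for 21 of 46 members and for 6.51% of all genes. The span from the lowest to the highest array was modest, with a median of 0.52 on the log2 scale, from 0.15 for Cdc45 to 0.99 for Hells.

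**Figure D1:**
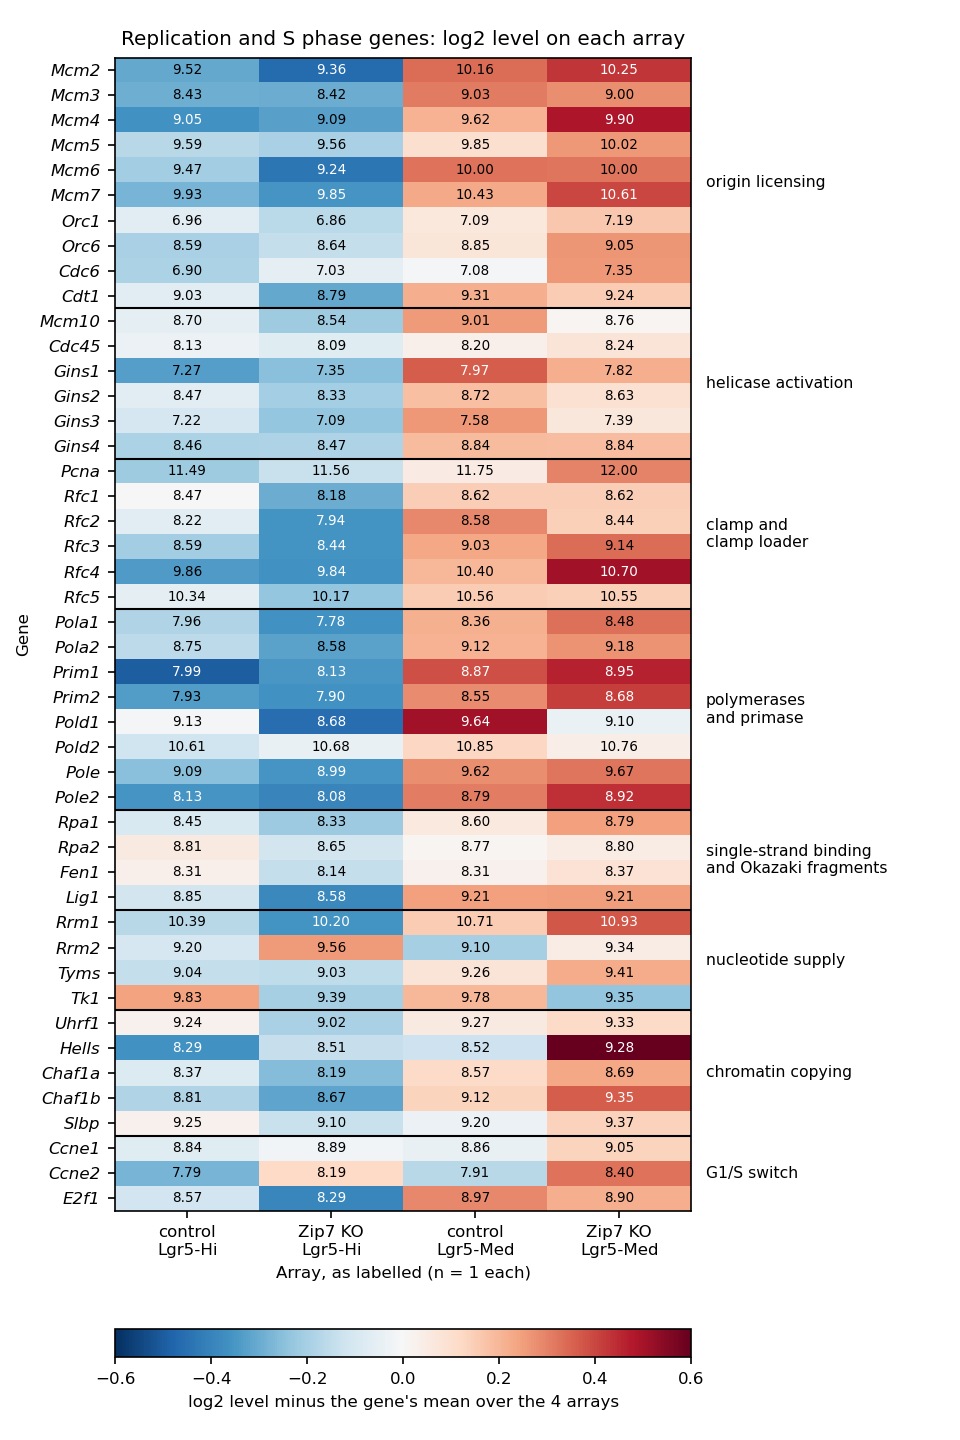
Log2 level of the 46 genes (rows, grouped by role) on the 4 arrays (columns, 1 array each); numbers are levels and colour is the level minus the gene's own mean over the 4 arrays. The arrays labelled Lgr5-Hi are mostly blue and those labelled Lgr5-Med mostly red, with Rrm2 and, by the probe set shown, Tk1 as exceptions and Hells highest on the KO Med array at 9.28.

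The first comparison asked how Zip7 KO differed from control among cells labelled Lgr5-Hi. Most replication genes were slightly lower in Zip7 KO: 34 of 46 members were lower and 12 higher, against 45% of 11988 genes lower and 55% higher. Their median difference was -0.13 on the log2 scale and the median of all genes was 0.02, a gap of -0.15. Of the members 6 were lower by at least 1.2-fold (8.41% of all genes) and 2 were higher by that much (10.7%), and 0 differed by 1.5-fold in either direction (0.926% of all genes lower and 1.08% higher). The lower ones were Pold1, Tk1, Rfc1, Rfc2, E2f1 and Lig1, and the higher ones Ccne2 and Rrm2. A dimmer probe set named Tk1 gave -0.20, short of 1.2-fold. After quantile normalisation 7 members were higher in place of 12, and 6 with the trend on mean level removed, where 45.3% and 49.8% of all genes were higher.

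The second comparison asked the same of cells labelled Lgr5-Med, and here most replication genes were slightly higher in Zip7 KO. There were 31 of 46 members higher, against 44.1% of 12243 genes, and 15 lower, against 55.8%. The median was 0.08, with quartiles at -0.01 and 0.18, while the median of all genes was -0.03, a gap of 0.11. At least 1.2-fold higher were 5 members (6.21% of all genes), namely Hells, Ccne2, Rfc4, Mcm4 and Cdc6. Lower by that much were 2 (12.6%), Pold1 and Tk1, though a dimmer probe set named Tk1 gave 0.06. Hells alone was past 1.5-fold (0.425% of all genes higher, 2.1% lower), and 0 members reached 2-fold in either genotype comparison. In the present comparison 0.0653% of all genes were higher and 0.621% lower by 2-fold, and under Lgr5-Hi 0.25% and 0.234%. Centring each array on the median of its expressed genes gave 38 members higher and 8 lower, with a median of 0.16. Of all genes 60.5% were then higher. Centring shifts every gene of an array alike, so the gap of 0.11 could not change.

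These genotype comparisons share no array. Members lower in Zip7 KO under the label Lgr5-Hi and higher under Lgr5-Med numbered 22 of 46, against 14.1% of 11827 genes, and the reverse held for 3 members, Gins1, Gins4 and Pold2, and for 25.1% of all genes. Lower under both labels were 12 members (30.8% of all genes), and higher under both were 9 (30% of all genes). The count of 22 was 28 after quantile normalisation (14.5% of all genes), 29 after centring (26.4%) and 28 with the trend removed (18.8%), and after centring 6 members were lower under both (26.4%). Markers of other cell types differed between the same arrays. Of all genes 45% were lower in Zip7 KO under Lgr5-Hi and 55.8% under Lgr5-Med. Of 16 lymphocyte and myeloid markers with a probe set of their own, 13 were expressed in each genotype comparison and 12 of these were lower in Zip7 KO under either label. Their summed linear signal was 4724, 3222, 5427 and 2754, and Ptprc, the leukocyte antigen CD45, was below the floor on both KO arrays. Of 13 Paneth and goblet markers 10 were lower under Lgr5-Hi and 12 under Lgr5-Med, with a summed signal of 79563, 68291, 45825 and 26869. The 3 higher under Lgr5-Hi were Clca1, Agr2 and Zg16, at 0.45, 0.27 and 0.16, and the lowest was Mmp7, at -1.55. This pooled list does not tell Paneth from goblet cells. All 15 enterocyte markers were lower under Lgr5-Med with a median of -0.50, and 7 of 15 under Lgr5-Hi, near the share of all genes. The summed signal of the enterocyte markers was 45352, 46161, 48809 and 37911. Whether these marker differences reflect cell numbers was not tested, nor was their part in the replication differences.

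**Figure D2:**
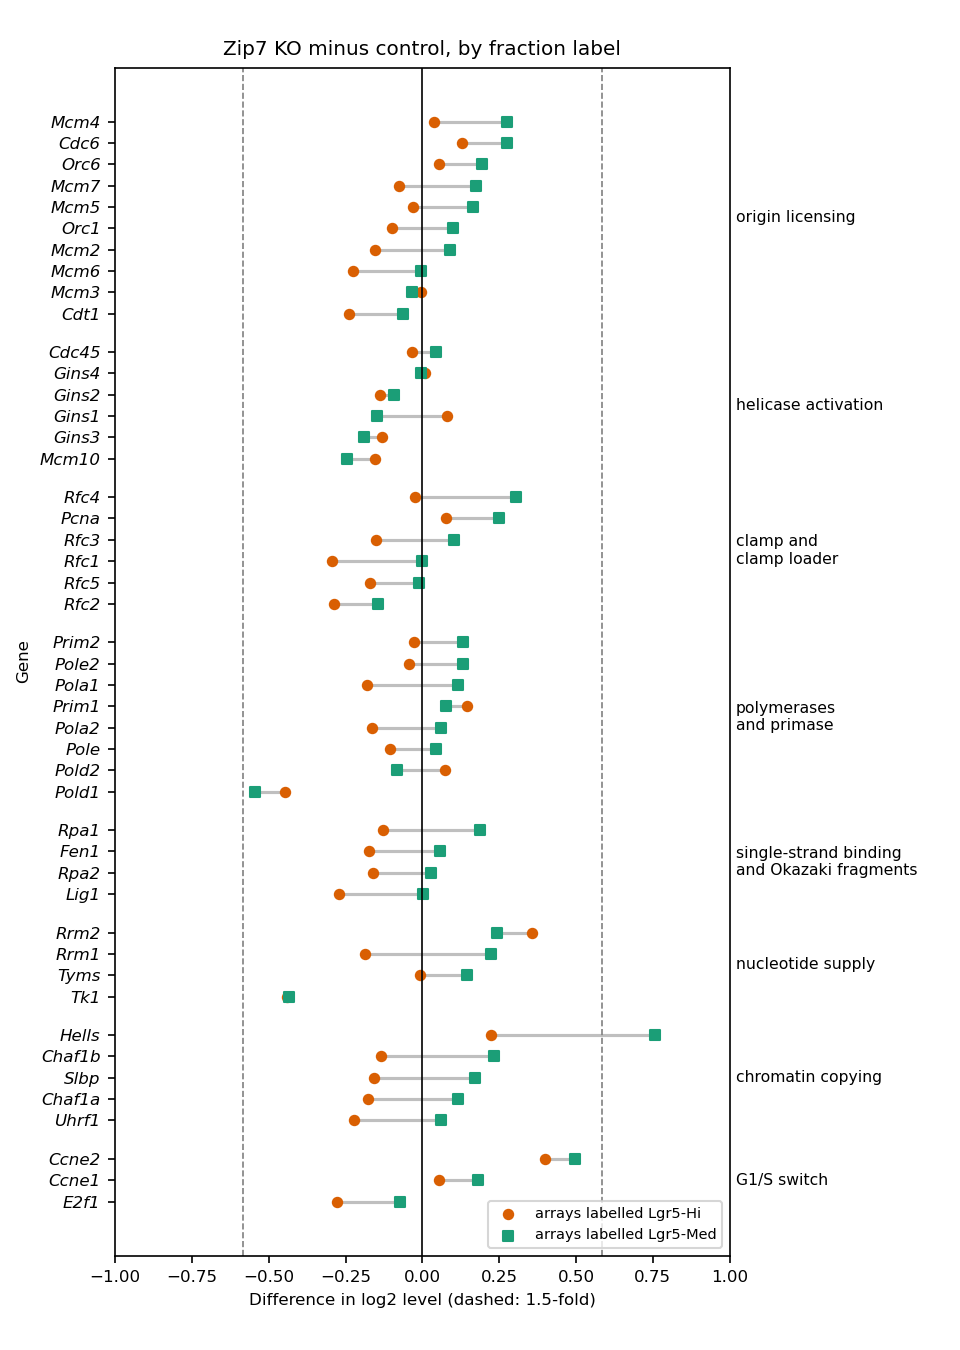
Difference in log2 level between Zip7 KO and control for each of the 46 genes, grouped by role; circles are the arrays labelled Lgr5-Hi, squares those labelled Lgr5-Med (1 array minus 1 array each), and dashed lines mark 1.5-fold. Most squares lie to the right of their circles, Hells reaches 0.76, and Pold1 and, by the probe set shown, Tk1 lie to the left under both labels.

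Among the licensing factors, the MCM2-7 subunits form the ring that becomes the replicative helicase. Mcm2 stood at 9.52, 9.36, 10.16 and 10.25, and Mcm4 at 9.05, 9.09, 9.62 and 9.90. Both were clearly higher on the arrays labelled Lgr5-Med, and between genotypes the Lgr5-Med arrays differed by 0.09 for Mcm2 and 0.28 for Mcm4 (1.21-fold). Mcm6 was lower in Zip7 KO under the label Lgr5-Hi, at 9.24 against 9.47, and differed by less than 0.05 under Lgr5-Med. Mcm3, Mcm5 and Mcm7 differed between genotypes by at most 0.17. Cdc6, which helps load the ring onto origins, was higher in Zip7 KO under both labels, at 6.90, 7.03, 7.08 and 7.35. Its partner Cdt1 was lower under both, at 9.03, 8.79, 9.31 and 9.24, although centring turned the small Lgr5-Med difference to 0.014. The origin recognition subunits Orc1 and Orc6 differed by at most 0.19. Over the 10 licensing genes 7 were lower under Lgr5-Hi (45% of all genes), with a median of -0.05, and 7 higher under Lgr5-Med (44.1% of all genes), with a median of 0.13. After quantile normalisation 9 were lower under Lgr5-Hi with a median of -0.11, where 45.3% of all genes were higher. After centring all 10 were higher under Lgr5-Med with a median of 0.21, where 60.5% of all genes were higher.

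Among the factors that activate the helicase most were lower in Zip7 KO under each label, taken separately. Gins1, a subunit of the GINS complex, was at 7.27, 7.35, 7.97 and 7.82, and Gins3 at 7.22, 7.09, 7.58 and 7.39. On the Lgr5-Med arrays both were thus lower in Zip7 KO, by -0.15 and -0.19. Mcm10, which helps the helicase start, was lower in Zip7 KO under both labels, at 8.70, 8.54, 9.01 and 8.76, and Gins2 was lower by -0.14 and -0.09. Gins4 and Cdc45 differed by less than 0.05 in either direction. Of these 6 genes 5 were lower under Lgr5-Med (55.8% of all genes), with a median of -0.12, and 4 were lower under Lgr5-Hi (45% of all genes), with a median of -0.08. After centring 4 were lower under Lgr5-Med, with a median of -0.04, where 60.5% of all genes were higher.

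Pcna, the sliding clamp that holds polymerases on DNA, was at 11.49, 11.56, 11.75 and 12.00 and so was higher in Zip7 KO under both labels, by 0.08 and 0.25, the former -0.0013 with the trend on mean level removed. A further probe set named Pcna differed from this one by under 0.002 on every array, so the pair is not an independent measure. The loader subunit Rfc4 was at 9.86, 9.84, 10.40 and 10.70, higher in Zip7 KO on the Lgr5-Med arrays alone, by 0.30 (1.23-fold). Its partners Rfc1, at 8.47 and 8.18, and Rfc2, at 8.22 and 7.94, were lower in Zip7 KO on the Lgr5-Hi arrays by -0.29 each. On the Lgr5-Med arrays Rfc1 was at 8.62 on both, Rfc2 was lower by -0.14, and Rfc3 and Rfc5 differed by 0.10 and -0.01.

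Pold1, the catalytic subunit of the lagging-strand polymerase delta, had the lowest genotype difference of all 46 genes under both labels. Its levels were 9.13, 8.68, 9.64 and 9.10, and both KO arrays lay below the control array with the same label, by -0.45 (1.36-fold) and -0.54 (1.46-fold). The KO Med value was close to the control Hi value. Pold2, a smaller subunit of the same polymerase, was at 10.61, 10.68, 10.85 and 10.76, and its differences of 0.07 and -0.08 did not follow those of Pold1. Most other polymerase genes were lower in Zip7 KO under Lgr5-Hi and higher under Lgr5-Med, as were 14.1% of all genes. Pola1, the catalytic subunit of polymerase alpha, was at 7.96, 7.78, 8.36 and 8.48, lower in Zip7 KO under Lgr5-Hi and higher under Lgr5-Med. Pola2, Pole, Pole2 and Prim2 did likewise with differences between -0.17 and 0.13, while the primase subunit Prim1 was higher under both, by 0.15 and 0.08.

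The genes that handle single strands and Okazaki fragments were all lower in Zip7 KO under Lgr5-Hi (45% of all genes). All were higher under Lgr5-Med (44.1%), and 14.1% of all genes had both directions. The Lgr5-Med differences were small, from 0.003 for Lig1 to 0.19 for Rpa1, and those near 0 cannot be told from measurement noise. Lig1, the ligase that seals the fragments, was at 8.85, 8.58, 9.21 and 9.21. Rpa1, the large subunit of the protein that coats single-stranded DNA, was at 8.45, 8.33, 8.60 and 8.79. Fen1, the nuclease that trims fragment ends, was at 8.31, 8.14, 8.31 and 8.37, and Rpa2 at 8.81, 8.65, 8.77 and 8.80. The low array was thus KO Hi for all 4 genes (23.7% of all genes), with medians of -0.17 and 0.04 under the 2 labels.

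The enzymes of nucleotide supply went in different directions. Rrm1 and Rrm2 encode the large and small subunits of ribonucleotide reductase, which makes deoxynucleotides. Rrm1 was at 10.39, 10.20, 10.71 and 10.93, lower in Zip7 KO under Lgr5-Hi by -0.19 and higher under Lgr5-Med by 0.22. Rrm2 was at 9.20, 9.56, 9.10 and 9.34, higher in Zip7 KO under both labels, by 0.36 (1.28-fold) and 0.24, and it was the only member with its highest value on the KO Hi array. Tk1, the cytosolic thymidine kinase that salvages thymidine, was at 9.83, 9.39, 9.78 and 9.35, lower in both KO arrays by -0.44 and -0.43, with differences of 0.04 between fractions in each genotype. A further, dimmer probe set named Tk1 gave 8.60, 8.40, 8.78 and 8.84, or genotype differences of -0.20 and 0.06 and fraction differences of -0.18 and -0.44. The genotype direction under Lgr5-Med and the fraction direction in both genotypes thus rested on the probe set chosen. Tyms, which makes thymidylate, differed by -0.01 and 0.14.

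Hells, a chromatin remodeller needed for DNA methylation, showed the largest genotype difference in the set. It stood at 8.29, 8.51, 8.52 and 9.28, so that the KO Med array lay apart from the other 3, and it was higher in Zip7 KO by 0.22 under Lgr5-Hi and by 0.76 (1.69-fold) under Lgr5-Med. The remaining chromatin genes were lower in Zip7 KO under Lgr5-Hi and higher under Lgr5-Med, as were 14.1% of all genes. Chaf1b and Chaf1a, subunits of the factor that places histones behind the fork, were at 8.81, 8.67, 9.12 and 9.35 and at 8.37, 8.19, 8.57 and 8.69. Uhrf1, which brings the maintenance DNA methyltransferase to replicated DNA, was at 9.24, 9.02, 9.27 and 9.33. Slbp, which binds histone mRNA, was at 9.25, 9.10, 9.20 and 9.37, but a dimmer probe set named Slbp was higher in Zip7 KO under both labels, by 0.09 and 0.06.

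At the G1/S switch the E-type cyclins, which activate CDK2 for entry into S phase, and the transcription factor E2f1 differed in direction. Ccne2 was at 7.79, 8.19, 7.91 and 8.40, and both KO arrays lay above both control arrays, by 0.40 (1.32-fold) under Lgr5-Hi and 0.50 (1.41-fold) under Lgr5-Med. Ccne1 was at 8.84, 8.89, 8.86 and 9.05, with differences of 0.05 and 0.18. E2f1 was at 8.57, 8.29, 8.97 and 8.90, lower in Zip7 KO by -0.28 (1.21-fold) and -0.07, the latter 0.0050 after centring.

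The remaining comparisons set cells labelled Lgr5-Hi against those labelled Lgr5-Med within each genotype. In controls 41 of 46 replication genes were lower under Lgr5-Hi, against 56.7% of 12248 genes, and 5 were higher (43.3%), with a median of -0.30 beside -0.04 for all genes. In Zip7 KO 44 of 46 were lower, against 50.7% of 12114 genes, and 2 were higher (49.3%), with a median of -0.46 beside -0.0045. At least 1.2-fold lower were 25 members in controls (18.2% of all genes) and 37 in Zip7 KO (16.5%). At least 1.5-fold lower were 6 in controls (3.14%) and 17 in Zip7 KO (3.56%), and 0 members were lower by 2-fold (0.523% and 0.751%). There were 0 members higher by 1.2-fold in either genotype (10.6% of all genes in controls and 18.7% in Zip7 KO), and so 0 by 1.5-fold (2.3% and 5.9%) or 2-fold (0.669% and 1.87%). The count of 6 was 2 after centring on expressed genes and 3 with the trend on mean level removed, and 8 members were then higher in controls, where 58.4% and 50.7% of all genes were.

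The 6 in controls were Prim1, Gins1, Pole2, Mcm2, Prim2 and Mcm3. Prim1, the catalytic subunit of primase, differed most there, by -0.88 (1.84-fold) in controls and -0.81 in Zip7 KO. In Zip7 KO Mcm2 differed most, by -0.89 (1.85-fold), followed by Rfc4 at -0.86 and Pole2, a subunit of polymerase epsilon, at -0.84. By role, the polymerase and primase genes had the lowest medians, -0.52 in controls and -0.68 in Zip7 KO, followed by the licensing genes at -0.39 and -0.52. All 18 genes of these roles were lower in both genotypes, against 39.1% of 11827 genes. The members that did not follow were few. Tk1 and Rrm2 were higher under Lgr5-Hi in both genotypes, by 0.04 and 0.04 and by 0.10 and 0.21, though the dimmer probe set of Tk1 was lower, by -0.18 and -0.44. Fen1, Rpa2 and Slbp were higher by at most 0.06 in controls only.

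The same arrays differed in cell type markers along the labels. All 12 stem cell markers were lower under Lgr5-Hi in both genotypes (56.7% of all genes in controls and 50.7% in Zip7 KO). Their medians were -1.23 and -1.52, with a summed linear signal of 13884, 11978, 28473 and 30815. All 13 Paneth and goblet markers were higher under Lgr5-Hi (43.3% and 49.3% of all genes), with medians of 1.02 and 1.33. Enterocyte markers had a median of -0.04 in controls and 0.34 in Zip7 KO, with 14 of 15 higher under Lgr5-Hi in the latter (49.3% of all genes). The part of these marker differences in the fraction difference of the replication genes was not tested. Mki67, the proliferation marker, was at 10.73, 10.56, 10.77 and 10.80, lowest on KO Hi and highest on KO Med like 21 of the members, with fraction differences of -0.04 in controls and -0.24 in Zip7 KO. Mki67 also belongs to the list of 27 G2/M and mitosis genes given below. In 21 of those 27 the fraction difference was higher in Zip7 KO than in control, against 60.5% of all genes, unlike Mki67.

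**Figure D3:**
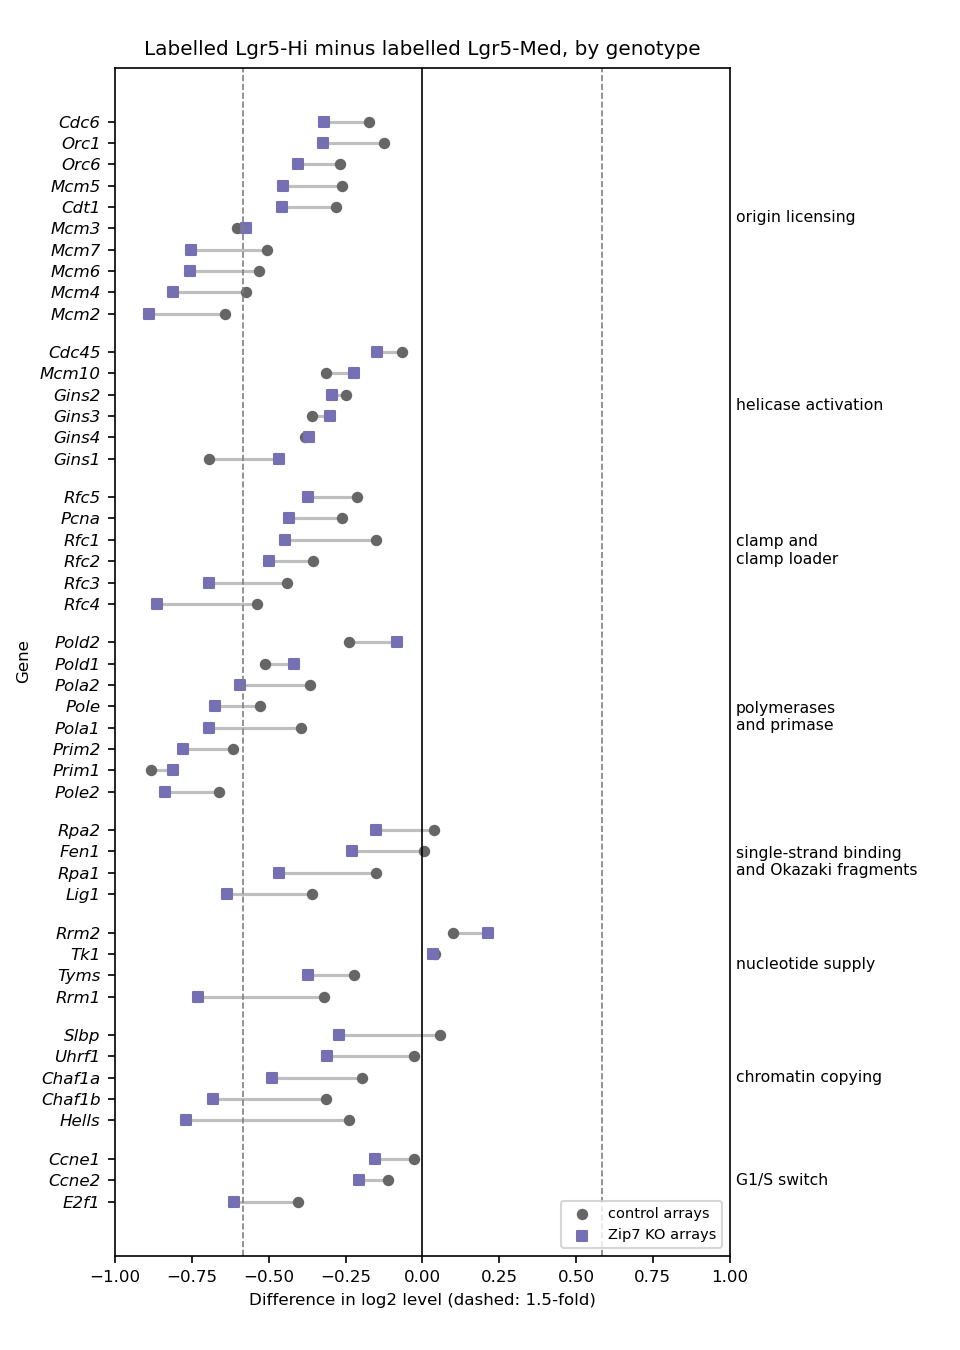
Difference in log2 level between the arrays labelled Lgr5-Hi and Lgr5-Med for each of the 46 genes, grouped by role; circles are control arrays, squares Zip7 KO arrays (1 array minus 1 array each), and dashed lines mark 1.5-fold. Nearly all points lie left of 0, and 17 squares against 6 circles lie beyond the left dashed line.

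Subtracting the genotype difference under Lgr5-Med from that under Lgr5-Hi uses the same 4 values and gives the widening of the fraction gap. The result was below 0 for 37 of 46 members, against 39.5% of 11827 genes, with a median of -0.18 beside 0.06 for all genes. Centring the arrays moved the median of all genes to -0.05 and that of the members to -0.29. It shifts every gene of an array alike, so the gap of -0.23 between them could not change. Of the members 11 were below by at least 1.2-fold, against 7.49% of all genes, and 0 were above by that much, against 16.6%. The 11 were Hells (-0.53), Rrm1 (-0.41), Chaf1b (-0.37), Slbp, Rfc4, Rpa1, Pola1, Rfc1, Chaf1a, Lig1 and Uhrf1 (-0.28). At 1.5-fold there were 0 members on either side, against 0.431% of all genes below and 2.34% above, and at 2-fold likewise 0, against 0.0169% and 0.313%. All 5 chromatin genes, all 6 clamp and clamp loader genes and all 4 genes of single strands and Okazaki fragments were below 0. Among the helicase activation genes 4 of 6 were above 0 and Gins1 was highest of all members at 0.23, and their median of 0.04 became -0.02 after quantile normalisation, -0.08 after centring and -0.04 with the trend removed. For Slbp the dimmer probe set gave no such gap, being lower under Lgr5-Hi by -0.23 in controls and -0.20 in Zip7 KO. The difference was not tested for any gene.

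**Figure D4:**
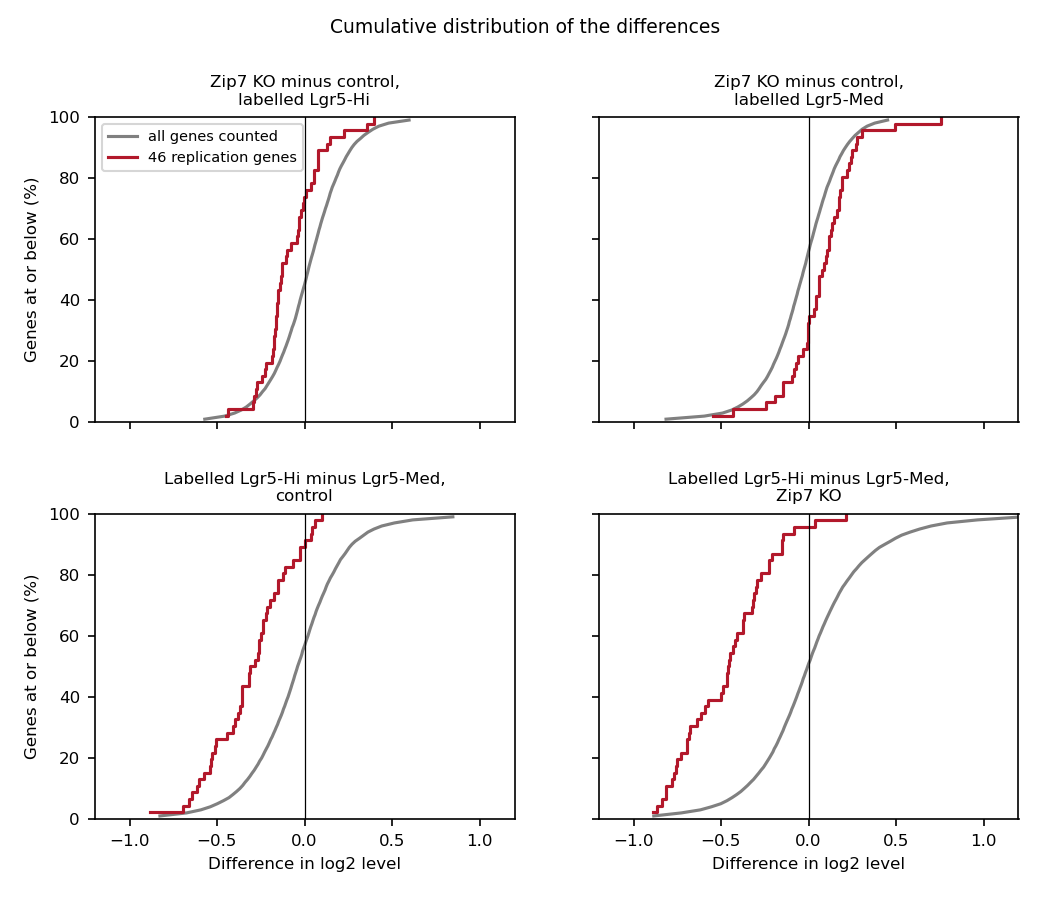
Cumulative share of genes (vertical axis, percent) at or below a difference in log2 level (horizontal axis) for the 46 replication genes (red) and all genes counted (grey, percentiles 1 to 99), in the 4 comparisons. The red curve lies left of the grey one in the fraction comparisons, where the members' medians are -0.30 and -0.46, and at the median it lies right of the grey one for Zip7 KO minus control under Lgr5-Med, at 0.08.

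Members with and without an E2F word had similar median genotype differences. The 15 members with a word had median genotype differences of -0.13 and 0.10 under the labels Lgr5-Hi and Lgr5-Med, and the 23 without one had -0.15 and 0.09. Between fractions the medians were -0.36 and -0.57 with a word and -0.22 and -0.41 without one. These are descriptions of 38 genes. Of the members whose words are printed above, Hells, Cdc6, Uhrf1 and Pola1 were higher in Zip7 KO under Lgr5-Med by 0.76, 0.27, 0.06 and 0.12. Gins3 and Mcm6 were lower there, by -0.19 and -0.003. Under Lgr5-Hi Hells and Cdc6 were higher, by 0.22 and 0.13. Mcm6, Uhrf1, Pola1 and Gins3 were lower under that label, by -0.23, -0.22, -0.18 and -0.13.

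A list of 95 further replication and S phase genes was also mostly lower under Lgr5-Hi than Lgr5-Med. Its direction between genotypes under Lgr5-Hi turned with the scaling, as did that of the median of all genes. Of the 95 listed genes 91 had a probe set of their own. Under Lgr5-Hi 52 of 88 expressed ones were higher in Zip7 KO (55% of all genes), with a median of 0.02 like that of all genes. After quantile normalisation, centring or removal of the trend 32 to 40 of 88 were higher, with medians between -0.01 and -0.03. Of all genes 45.3%, 47.1% and 49.8% were then higher, with medians of -0.02, -0.01 and -0.0007. Under Lgr5-Med 64 of 89 were higher (44.1% of all genes), with a median of 0.06, and after centring 74 (60.5% of all genes), with a median of 0.14. Between fractions 77 of 88 were lower under Lgr5-Hi in controls (56.7% of all genes) and 79 of 89 in Zip7 KO (50.7%), with medians of -0.30 and -0.40. Timeless, a fork protection factor, was lower in Zip7 KO under both labels, by -0.42 and -0.31. The maintenance methyltransferase gene Dnmt1 was lower by -0.40 and -0.15. Orc4, an origin recognition subunit, was higher by 0.44 and 0.43, and Rb1, the retinoblastoma gene that restrains E2F factors, by 0.50 under Lgr5-Hi. Ccnd1, a cyclin that acts before the E-type cyclins, was lower by -0.30 and -0.28. Between fractions the lowest were Myc, at -1.27 and -1.17, Cdk6, a kinase partner of the D-type cyclins, at -1.19 and -1.42, and Cdca7, at -1.17 and -1.58, and the highest was E2f2, at 0.75 and 1.15. Cdca7 is also a stem cell marker.

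Genes of G2/M and mitosis, the phase that follows replication, differed from the replication genes in the sign of their median under Lgr5-Med. Of 27 such genes 25 were lower in Zip7 KO under Lgr5-Med, with a median of -0.18, against 55.8% of all genes lower, where 31 of 46 replication genes were higher. After centring 21 of 27 were lower, with a median of -0.10, where 60.5% of all genes were higher. Under Lgr5-Hi 19 of 27 were lower (45% of all genes), with a median of -0.10, or -0.16 after quantile normalisation or removal of the trend, beside -0.13 for the replication genes. Between fractions their medians were -0.17 in controls and -0.14 in Zip7 KO, smaller in size than the -0.30 and -0.46 of the replication genes. The widening of the fraction gap had a median of 0.07 for these genes, beside 0.06 for all genes and -0.18 for the replication genes, and centring, which moved all genes alike, gave -0.04 beside -0.05 and -0.29. With the trend removed it was -0.02. Checkpoint and repair genes of S phase had medians of -0.02 and -0.07 between genotypes, the latter 0.0077 after centring, and -0.32 in both genotypes between fractions. The difference between these lists was not tested.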

How the data were processed

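The 4 arrays measured expression in sorted mouse crypt cells, 1 array per genotype and fraction label. The deposited table holds RMA values, 1 per probe set, per the submitters' processing notes, and they were taken here as log2 values. The base was inferred from the range, and no source used here states the software or which arrays were normalised in 1 run. Among 35557 probe sets, 21789 had 1 gene symbol in the platform annotation, 1621 had several, and 12147 had none here; the first kind gave 19938 genes. The floor of an array was percentile 95 of 1207 chemosensory receptor genes, which crypts are not known to use (6.10 to 6.25), and a gene was counted in a comparison if above it on at least 1 of the 2 arrays, receptors excluded. Differences are between 2 log2 values; counts were taken at 1.5-fold and 2-fold, and at 1.2-fold after the values had been seen. No test was run: a contrast between 2 single arrays, or of the genotype differences, leaves no residual degrees of freedom, and an additive fit of genotype and label, which leaves 1, was not made. Alternatives were quantile normalisation, centring, a loess trend (span 0.3), the mean of probe sets, a floor at percentile 99 and no floor. All members could be named; from further lists, those among the 3 highest or lowest in a comparison, with Lgr5, Slc39a7, Xist, Ptprc, Epcam and Mki67 as checks. Members and lists were chosen with earlier results of these data known. RefSeq names matched for 46 of 46 members. Calculations used Python 3.11.15, pandas 2.3.3, NumPy 2.4.6 and statsmodels 0.14.6, and the difference and count steps were tested on simulated data.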

Additional observations from a re-analysis of the deposited data

Results flagged for a closer look

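The median genotype difference of the 46 replication genes had opposite signs under the 2 fraction labels, -0.13 for Lgr5-Hi and 0.08 for Lgr5-Med. The difference was not tested, and each value rests on 1 array against 1 array. No single member differed in opposite directions by at least 1.2-fold under both labels.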

How the results depend on the processing

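Each summary over the 46 members was recomputed under 6 alternatives. The floor at percentile 99 and no floor left every member counted. The 35 summaries and 230 single-gene values under each of these settings therefore could not change. The mean of probe sets could change only the 3 members with several probe sets. The medians over all 46 members kept their sign in all 5 contrasts under all 6 (those of single roles and other lists did not always, as given beside them), and 195 of 210 recomputed summaries were within 1.5 times the reported value. Those that did not were as follows. Under Lgr5-Hi the members higher in Zip7 KO numbered 7 after quantile normalisation and 6 with the loess trend removed. Under Lgr5-Med centring gave a median of 0.16 and 8 members lower. In the control fraction comparison 8 members were higher after centring and with loess and 3 with the mean of probe sets, and 2 (centring) or 3 (loess) were lower by 1.5-fold; in the Zip7 KO one 1 was higher with the mean of probe sets. For the difference between genotype differences, centring gave a median of -0.29 and 3 members higher, and 1 member was lower by 1.5-fold after quantile normalisation, centring or loess. The cause was not tested. Of 1380 single-gene values 4 moved by more than 0.13, all for Tk1 or Slbp with the mean of probe sets, and 0 that were past 1.2-fold changed sign. A fit with the fraction label as a block was not made; the labels give no replicate numbers, and such a fit would leave 1 residual degree of freedom. Differences near 0 cannot be told from measurement noise with 1 array per group.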

Other observations

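Histone genes, many of which are transcribed in S phase with mRNA bound by the product of Slbp, were looked at after their values had been seen. They were taken by name, and whether each is replication-dependent was not checked. Of 26 genes named H1f1 to H1f5 or as H2ac, H2bc, H3c or H4c genes with a probe set of their own, 24 were expressed on at least 1 array of each comparison. In Zip7 KO 19 of 24 were lower under Lgr5-Hi, against 45% of all genes, with a median of -0.11 (-0.18 with the trend on mean level removed), and 19 of 24 under Lgr5-Med, against 55.8% of all genes, with a median of -0.16. After centring the latter were 15 of 24 with a median of -0.09, where 60.5% of all genes were higher. The linker histone gene H1f5 was at 10.83, 10.28, 10.60 and 10.22 on the control Hi, KO Hi, control Med and KO Med arrays, lower in Zip7 KO by -0.55 and -0.39. H4c6 was lower by -0.57 and -0.24, and H3c4 higher by 0.19 and 0.13. Between fractions the histone genes had medians of 0.06 in controls and 0.02 in Zip7 KO, the latter -0.0037 after centring, where the replication genes had -0.30 and -0.46. Histone genes are near-identical copies that can share probes, so values of single genes are uncertain, and no difference was tested.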
